A study of Mus musculus with 12 samples.

Results

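The genes described here mark or maintain a resting, circulating state of T cells: Lef1, Tcf7, Bach2, Klf2, Satb1, Foxo1, Ccr7, S1pr1 and Actn1. Their probes were taken by gene symbol from the platform annotation of the array, with every probe followed on its own. The annotation named 13 of the 45281 probes for 8 of the 9 genes, namely 4 for Lef1, 2 each for Satb1 and Foxo1, and 1 each for Bach2, Klf2, Ccr7, S1pr1 and Actn1. No probe was named for Tcf7, which was not analysed here. All 13 probes passed the filter on dim probes, which kept the 20367 probes detected (detection p below 0.05) on at least 3 of the 12 arrays.

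The study compared regulatory T cells (Tregs, the Foxp3-expressing CD4 T cells that restrain immune responses) of perigonadal fat with those of spleen, with and without a floxed Tbx21, the gene for the transcription factor T-bet. Total RNA of Tregs from chow-fed C57BL/6 mice was amplified and hybridised to 12 Illumina bead arrays, 3 in each of 4 groups. The groups were perigonadal fat Tregs with floxed Tbx21 and Foxp3-YFP-Cre (labelled T-bet knockout), perigonadal fat Tregs with Foxp3-YFP-Cre alone (control), spleen Tregs labelled knockout, and spleen control Tregs. All 4 groups carried Foxp3-YFP-Cre, which is driven by the Foxp3 locus and is therefore active in Foxp3-expressing cells. The labels do not give the age or sex of the mice, or whether an array holds 1 animal or a pool. The p-values below therefore rest on the scatter of these arrays alone, some of which may be technical. The arrays come from 3 slides with 1 array of each group, and on every slide the array letter is the same for a given group, so group and array letter cannot be told apart.

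In naive T cells, Lef1 and its relative Tcf7 are DNA-binding partners of beta-catenin that maintain the naive programme, together with the chromatin organiser Satb1 and the repressor Bach2. Foxo1 is a transcription factor held out of the nucleus by Akt signalling, and it drives Klf2, which in turn drives S1pr1. Ccr7 guides T cells into lymph nodes towards its ligands Ccl19 and Ccl21, and S1pr1, a receptor for sphingosine 1-phosphate, lets them leave again. Tregs of lymphoid organs can keep much of this programme, whereas Tregs settled in tissues such as visceral fat are known for an effector state.

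The promoters of Lef1 and Actn1, which were lower in fat, and of Klf2, for which no difference was called, are shown for comparison. Each is the 250 bases before the first listed start, from RefSeq (GRCm38.p6), in the direction of transcription, with each CACCC, the core of the CACCC box bound by Klf factors, in capitals (GGGTG where it lies on the opposite strand).
Lef1, chr3:131110047-131110296, strand +: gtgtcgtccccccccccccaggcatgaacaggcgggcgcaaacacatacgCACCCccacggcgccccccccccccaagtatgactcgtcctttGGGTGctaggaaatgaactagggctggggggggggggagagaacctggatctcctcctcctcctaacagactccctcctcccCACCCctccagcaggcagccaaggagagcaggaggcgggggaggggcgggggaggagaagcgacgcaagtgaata
Actn1, chr12:80260364-80260613, strand -: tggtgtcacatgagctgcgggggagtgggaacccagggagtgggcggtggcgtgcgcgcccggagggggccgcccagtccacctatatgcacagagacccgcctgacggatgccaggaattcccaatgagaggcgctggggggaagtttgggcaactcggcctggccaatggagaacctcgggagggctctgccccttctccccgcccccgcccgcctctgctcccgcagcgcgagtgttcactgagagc
Klf2, chr8:72318812-72319061, strand +: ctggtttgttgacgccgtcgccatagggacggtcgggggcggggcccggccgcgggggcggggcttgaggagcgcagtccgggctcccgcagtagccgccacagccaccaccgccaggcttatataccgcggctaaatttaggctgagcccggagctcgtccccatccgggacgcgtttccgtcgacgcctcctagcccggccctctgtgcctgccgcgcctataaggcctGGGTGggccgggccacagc

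The Lef1 stretch held 3 CACCC motifs at 66.4% GC, the Actn1 stretch 0 at 68.4% GC and the Klf2 stretch 1 at 71.2% GC. CACCC lay in 52% of all 32851 such stretches of the table, so both its presence and its absence are ordinary. The longer motifs CTTTGAA and CTTTGAT (TCF and LEF factors), GTAAACA (FOXO factors) and CCACACCC (KLF factors, which contains CACCC) were searched on both strands of windows running on to 50 bases after the start. They lay in 8.65%, 3.65% and 3.56% of all windows, and in none of the windows of Lef1, Bach2, Klf2, Satb1, Foxo1 or Actn1. Of the 2 windows of Tcf7, which had no named probe, 1 held both GTAAACA and CCACACCC. The table held 15 windows for 7 of the 9 genes, and Ccr7 and S1pr1 are named only. These matches describe the letters of the windows and were not tested against the array values.

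The libraries need a short account before the values. Between 31.0 and 37.9% of probes were detected on the fat arrays and between 27.0 and 40.9% on the spleen arrays, with the lowest share on the spleen array labelled knockout of replicate 1. Fat replicates correlated less well with each other (0.777 to 0.841 over both genotypes) than spleen replicates (0.869 to 0.909). The single Tbx21 probe read 6.62, 7.57 and 4.94 in fat labelled knockout, 5.50, 7.27 and 5.17 in fat control, 4.69, 5.74 and 4.72 in spleen labelled knockout, and 4.54, 4.88 and 5.19 in spleen control (log2 of normalized intensity, as are all levels below). Its values were not lower in the knockout-labelled fat arrays, and since its position relative to the floxed part is not given, it does not check the labels. Foxp3 was detected on all 12 arrays by 1 of its 4 probes and on 11 by another 2. Its probes did not lean the same way between tissues. ILMN_1225330 ranged from 7.20 to 9.23 in fat, against 6.39 to 8.93 in spleen. ILMN_1251126 ranged from 4.71 (fat labelled knockout, replicate 1) to 8.04 in fat, against 7.72 to 8.87 in spleen.

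Lef1 showed the largest difference between tissues among the 13 probes. Its probe ILMN_1231087 (RefSeq transcript NM_010703) read 5.91, 6.38 and 5.04 in fat labelled knockout and 6.78, 5.64 and 6.63 in fat control, against 9.28, 9.79 and 9.73 in spleen labelled knockout and 9.75, 9.61 and 9.55 in spleen control. Every fat array lay below every spleen array by more than the whole range within either tissue. Lef1 fell by 3.82 in fat against spleen among knockout-labelled samples (SE 0.41, limma adjusted p = 0.000279, adjusted p with the slide as a block = 0.00138), which is 14.2-fold. In controls it fell by 3.29 (SE 0.41, limma adjusted p = 0.000763, with the slide as a block 0.00288), which is 9.76-fold. Averaged over genotypes the difference was -3.56 with a 95% interval from -4.18 to -2.93 (limma adjusted p = 1.16e-05), and it was -3.17, -3.69 and -3.80 on slides 1, 2 and 3. In bulk RNA such as this, fewer cells of a type and less RNA per cell cannot be told apart.

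The other Lef1 probes pointed the same way but spread more. ILMN_1239469 read 4.68, 4.88 and 4.87 in fat labelled knockout and 4.82, 6.95 and 6.09 in fat control, against 8.05, 7.69 and 7.73 in spleen labelled knockout and 7.51, 6.68 and 8.23 in spleen control. It was not well above background on any fat array labelled knockout, so the called difference there is at least 6.46-fold lower in fat (limma adjusted p = 0.00602). In controls its difference of -1.52 was not called (limma adjusted p = 0.124), and replicate 2 of fat control lay within the range of the spleen controls. Without that array the difference was called (-2.02, adjusted p = 0.0449), as it was in 2 of 22 alternatives in all.

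ILMN_2648475 read 4.60, 4.75 and 7.01 in fat labelled knockout and 5.19, 6.75 and 5.22 in fat control, against 6.45, 8.24 and 7.07 in spleen labelled knockout and 6.49, 8.06 and 6.68 in spleen control. The tissues overlapped, and the mean difference of -1.58 was not called (limma adjusted p = 0.0660), although it was with the slide as a block (adjusted p = 0.0486). On the 3 slides it was -1.58, -2.40 and -0.76. Leaving out replicate 3 of fat labelled knockout (-1.97, adjusted p = 0.0158) or replicate 2 of fat control (-1.84, adjusted p = 0.0421) also brought the call. Those arrays held the highest fat readings of this probe, 7.01 and 6.75, so leaving either out favours a call. In all it was called in 4 of 21 alternatives.

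ILMN_1233230, which the annotation ties to a cDNA record and not to a RefSeq transcript of Lef1, read 4.50, 4.95 and 4.58 in fat labelled knockout and 4.46, 4.73 and 4.60 in fat control, against 5.26, 7.05 and 7.72 in spleen labelled knockout and 7.35, 8.28 and 7.46 in spleen control. It was not well above background on any of the 6 fat arrays and was detected on 5 of 6 spleen arrays. It was called lower in fat in controls, by at least 6.05-fold (limma adjusted p = 0.00599), and over both genotypes, by at least 4.20-fold (limma adjusted p = 0.000919). Among knockout-labelled samples the difference, at least 2.91-fold lower in fat, missed the threshold (limma adjusted p = 0.0547). It passed with the slide as a block (adjusted p = 0.0409), and without the spleen array of replicate 1, the one with the fewest detected probes (adjusted p = 0.00533). That array also held the lowest spleen reading of this probe, and the difference was called in 5 of 22 alternatives.

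**Figure D1:**
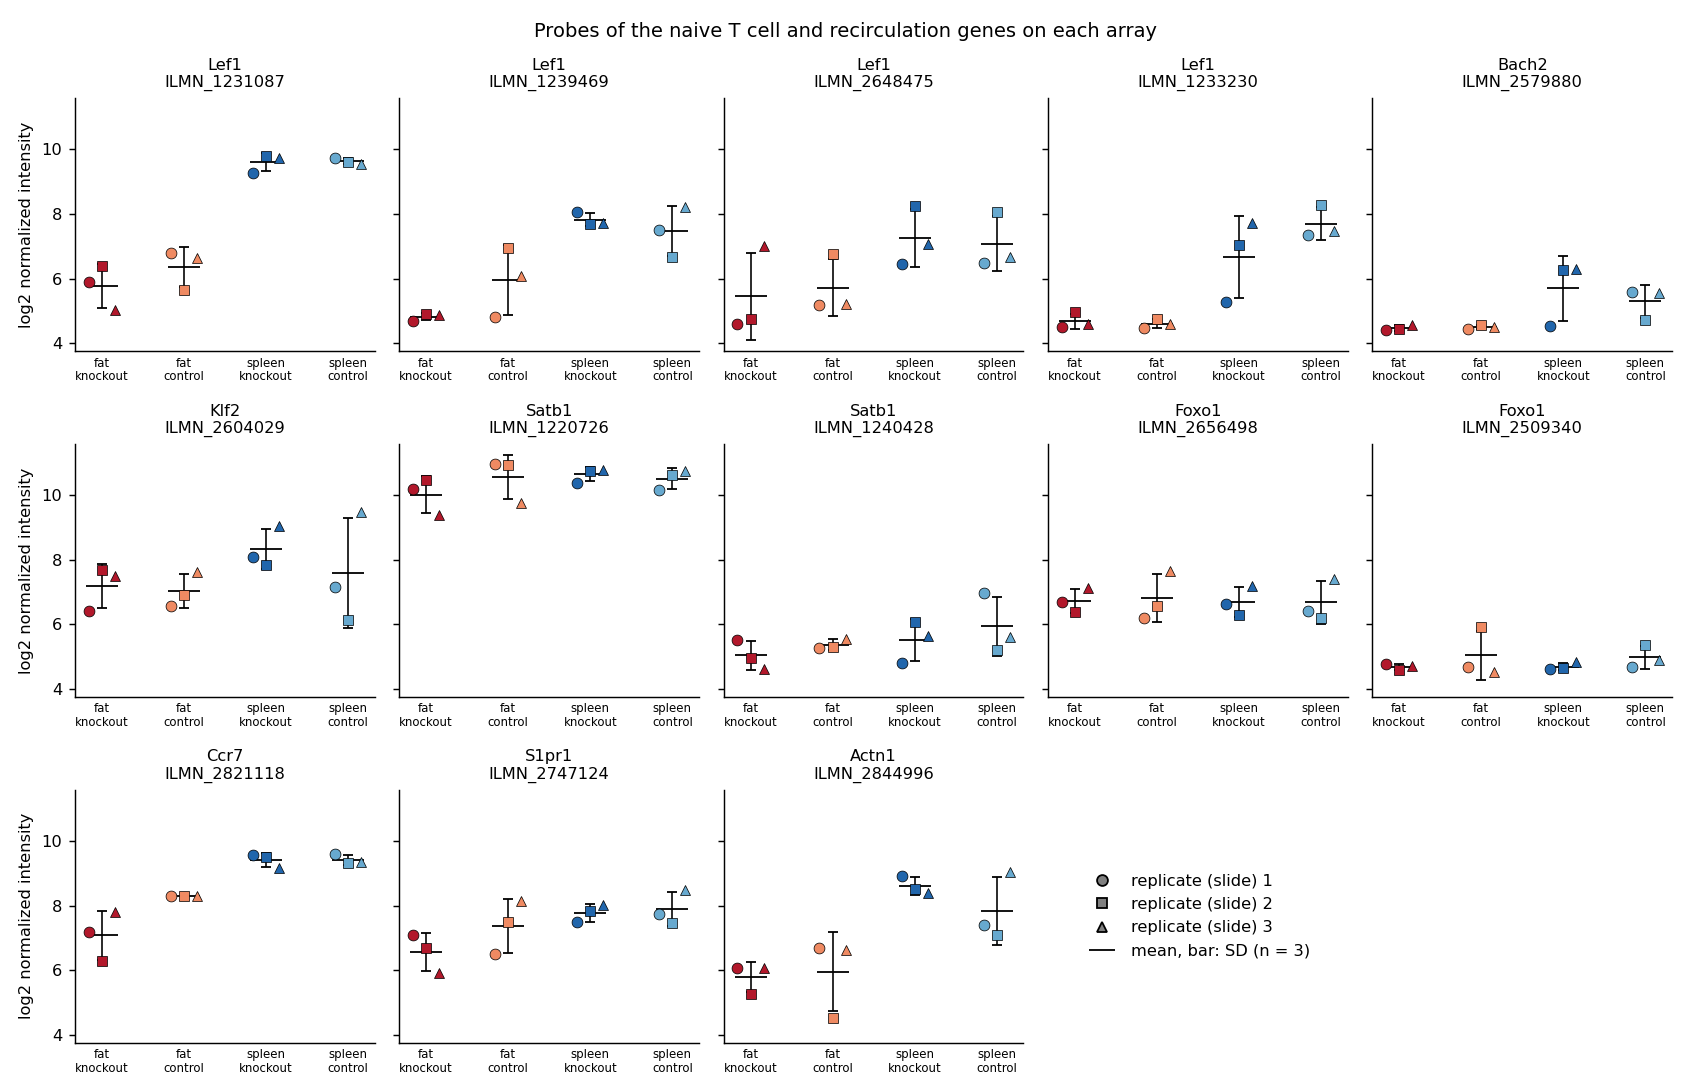
Log2 normalized intensity of the 13 probes on each array, 1 panel per probe, with the groups along the horizontal axis, 1 symbol per slide, and the mean and SD of 3 arrays as lines. The fat arrays of Lef1 ILMN_1231087 and of Ccr7 all lie below the spleen arrays, whereas those of Foxo1 ILMN_2656498 cover the same range.

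Ccr7, the receptor for lymph node entry, was also lower in fat. Its probe ILMN_2821118 read 7.18, 6.28 and 7.79 in fat labelled knockout and 8.30, 8.29 and 8.28 in fat control, against 9.56, 9.52 and 9.15 in spleen labelled knockout and 9.60, 9.32 and 9.35 in spleen control. The order of the group means was fat labelled knockout, fat control and then the spleen groups, which did not differ beyond their spread, and no fat array reached the lowest spleen array. Ccr7 fell by 2.33 in fat among knockout-labelled samples (SE 0.37, limma adjusted p = 0.00380, with the slide as a block 0.00821), which is 5.02-fold. In controls the difference of -1.13 (95% interval from -1.93 to -0.33) was not called (limma adjusted p = 0.111), although the groups did not overlap. It was called in controls only when no background was subtracted (-0.92, adjusted p = 0.0227), which is 1 of 23 alternatives. Over both genotypes Ccr7 fell by 1.73 (SE 0.26, limma adjusted p = 0.00107), and on the slides the difference was -1.84, -2.13 and -1.21.

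S1pr1, the receptor for exit into lymph and blood, leaned the same way without passing the test. ILMN_2747124 read 7.09, 6.68 and 5.92 in fat labelled knockout and 6.49, 7.50 and 8.13 in fat control, against 7.48, 7.84 and 8.01 in spleen labelled knockout and 7.73, 7.45 and 8.48 in spleen control. The fat arrays labelled knockout all lay below their spleen counterparts, and the control arrays overlapped. The difference was -1.21 among knockout-labelled samples (limma adjusted p = 0.191), -0.52 in controls (limma adjusted p = 0.611) and -0.86 over both (95% interval from -1.58 to -0.15, limma adjusted p = 0.113).

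Actn1 encodes alpha-actinin 1, which cross-links actin filaments and anchors them at adhesions. ILMN_2844996 read 6.06, 5.25 and 6.05 in fat labelled knockout and 6.69, 4.53 and 6.63 in fat control, against 8.91, 8.50 and 8.39 in spleen labelled knockout and 7.39, 7.08 and 9.03 in spleen control. All 6 fat arrays lay below all 6 spleen arrays, with the control groups the more spread. Over both genotypes Actn1 fell by 2.35 (SE 0.44, limma adjusted p = 0.00428, with the slide as a block 0.00245), a 5.09-fold lower level, and the difference was -1.77, -2.90 and -2.37 on the slides. Among knockout-labelled samples it fell by 2.82 (SE 0.62, limma adjusted p = 0.0235), a call lost with no filter on dim probes (adjusted p = 0.0869) and without any 1 of these 6 arrays other than replicate 3 of fat (adjusted p from 0.0518 to 0.0950). In controls the difference of -1.88 was not called (limma adjusted p = 0.117).

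Klf2, the factor upstream of S1pr1, spread widely within the spleen controls. ILMN_2604029 read 6.40, 7.67 and 7.50 in fat labelled knockout and 6.58, 6.92 and 7.62 in fat control, against 8.10, 7.85 and 9.04 in spleen labelled knockout and 7.17, 6.13 and 9.47 in spleen control. The spleen control arrays alone covered a wider range than all 6 fat arrays, while among knockout-labelled samples every fat array lay below every spleen array. The mean difference of -0.84 had a 95% interval from -1.95 to 0.26 (limma adjusted p = 0.327). A fold of the size seen for Lef1 lies outside this interval, and a fold of 2 lies inside it.

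Foxo1, the factor upstream of Klf2, read nearly alike in all groups. ILMN_2656498 read 6.68, 6.38 and 7.12 in fat labelled knockout and 6.20, 6.58 and 7.66 in fat control, against 6.62, 6.28 and 7.19 in spleen labelled knockout and 6.41, 6.20 and 7.42 in spleen control. The highest array of every group was that of replicate 3, and the tissue difference over both genotypes was 0.08 (95% interval from -0.63 to 0.79, limma adjusted p = 0.913). The second Foxo1 probe, ILMN_2509340, was detected on 3 of 12 arrays and lay between 4.52 and 5.91 in fat and between 4.61 and 5.37 in spleen, so a difference there was not detectable at this signal.

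Satb1, the chromatin organiser, was bright on every array. ILMN_1220726 read 10.18, 10.48 and 9.38 in fat labelled knockout and 10.96, 10.95 and 9.77 in fat control, against 10.39, 10.75 and 10.79 in spleen labelled knockout and 10.16, 10.62 and 10.77 in spleen control. The lowest values in fat were those of replicate 3, and the tissues overlapped. The difference over both genotypes was -0.29 (95% interval from -0.92 to 0.33, limma adjusted p = 0.580), and by slide it was 0.29, 0.03 and -1.20. The dimmer probe ILMN_1240428, tied to a cDNA record, lay between 4.63 and 5.55 in fat and between 4.79 and 6.97 in spleen, with a difference of -0.52 (limma adjusted p = 0.375).

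Bach2, a repressor of effector genes, was seen only through ILMN_2579880, tied to a cDNA record and near background. It read 4.42, 4.42 and 4.57 in fat labelled knockout and 4.44, 4.57 and 4.51 in fat control, against 4.54, 6.26 and 6.31 in spleen labelled knockout and 5.60, 4.71 and 5.56 in spleen control. It was not well above background on any fat array and was detected on 4 of 6 spleen arrays. The difference over both genotypes, at least 1.30-fold lower in fat, just missed the threshold (limma adjusted p = 0.0597). Without the spleen array of replicate 1 labelled knockout it passed (adjusted p = 0.00560), as it did in the authors' normalized table (adjusted p = 0.0351). That array held the lowest spleen reading, 4.54, so leaving it out favours a call. Bach2 was called in only 3 of 22 alternatives over both genotypes.

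Counted over the 13 probes, 4 were called lower in fat among knockout-labelled samples (2 of Lef1, with Ccr7 and Actn1), against a background of 1.7% of all kept probes called lower there. In controls 2 were called lower, both of Lef1, against 1.77%. Over both genotypes 5 were called lower, 3 of Lef1 with Ccr7 and Actn1, against 6.49%, and none was called higher in any of these comparisons. All 6 fat arrays lay below all 6 spleen arrays for 4 of the 13 probes, against 3.93% of kept probes. The median difference of the 13 probes was -1.23 among knockout-labelled samples, -0.79 in controls and -1.01 over both, beside medians of -0.07, -0.05 and -0.05 over all kept probes. With the 3, 2 and 2 probes that were at background in fat and had a bound set to it, the medians of the 13 were -1.21, -0.57 and -0.86. Foxo1 ILMN_2509340, detected on no array labelled knockout of either tissue, had no bound and kept its measured value. The 4 Lef1 probes share 1 gene and are not independent of each other. Lef1 ILMN_1233230 and Bach2 were detected on no fat array and passed the filter through spleen arrays alone. The filter therefore favoured a lower value in fat for both. ILMN_1233230 is among the calls in controls and over both genotypes, and among the probes without overlap. The members were chosen with earlier results of these data known, so these counts are descriptions.

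**Figure D2:**
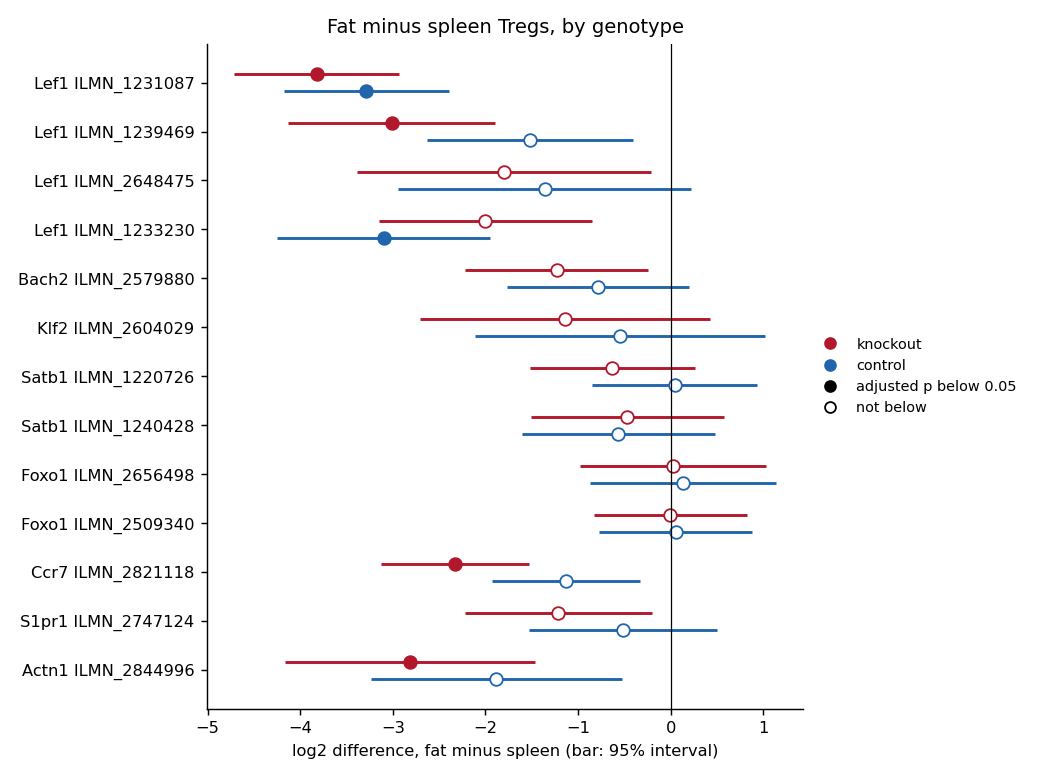
Log2 difference between fat and spleen Tregs for each of the 13 probes, with the samples labelled knockout above the controls, and the 95% interval as a bar. Filled points (limma adjusted p below 0.05) are 4 among knockout-labelled samples and 2 in controls, all below 0, and the intervals of both Foxo1 probes cover 0. Probes at background in fat are drawn at their measured difference, not at the bound.

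The comparison of samples labelled knockout with controls asks whether the members differ with T-bet within each tissue. No member probe was called in fat, where 0.00982% of kept probes were called, in spleen, where 0% were, or in the difference of the genotype effect between tissues, where 0% were. At an unadjusted limma p below 0.05 there were 2 of 13 member probes in fat, 0 in spleen and 1 in the difference, beside 6.35%, 2.34% and 3.82% of all kept probes.

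Ccr7 was one of the 2 in fat. Its 3 fat arrays labelled knockout, at 6.28 to 7.79, all lay below the 3 fat controls, at 8.28 to 8.30, with a difference of -1.21 (95% interval from -2.01 to -0.41, limma adjusted p = 0.522) and with -1.12, -2.01 and -0.49 on the slides. In spleen its difference was -0.01 (95% interval from -0.81 to 0.79), and the difference between tissues was -1.20 (95% interval from -2.33 to -0.07, limma adjusted p = 1.00). The lower Ccr7 values of the fat arrays labelled knockout therefore did not pass the test over all probes.

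The other was Lef1 ILMN_1239469, which was not well above background on any fat array labelled knockout and was at least 1.76-fold lower there than in fat control (limma adjusted p = 0.767), with overlapping arrays. The brightest Lef1 probe, ILMN_1231087, gave -0.57 in fat (95% interval from -1.46 to 0.32) and -0.04 in spleen (95% interval from -0.93 to 0.85). S1pr1 gave -0.81 in fat (95% interval from -1.82 to 0.20) and -0.11 in spleen (95% interval from -1.13 to 0.90). With 3 arrays per group the median SE of such a difference was 0.47.

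**Figure D3:**
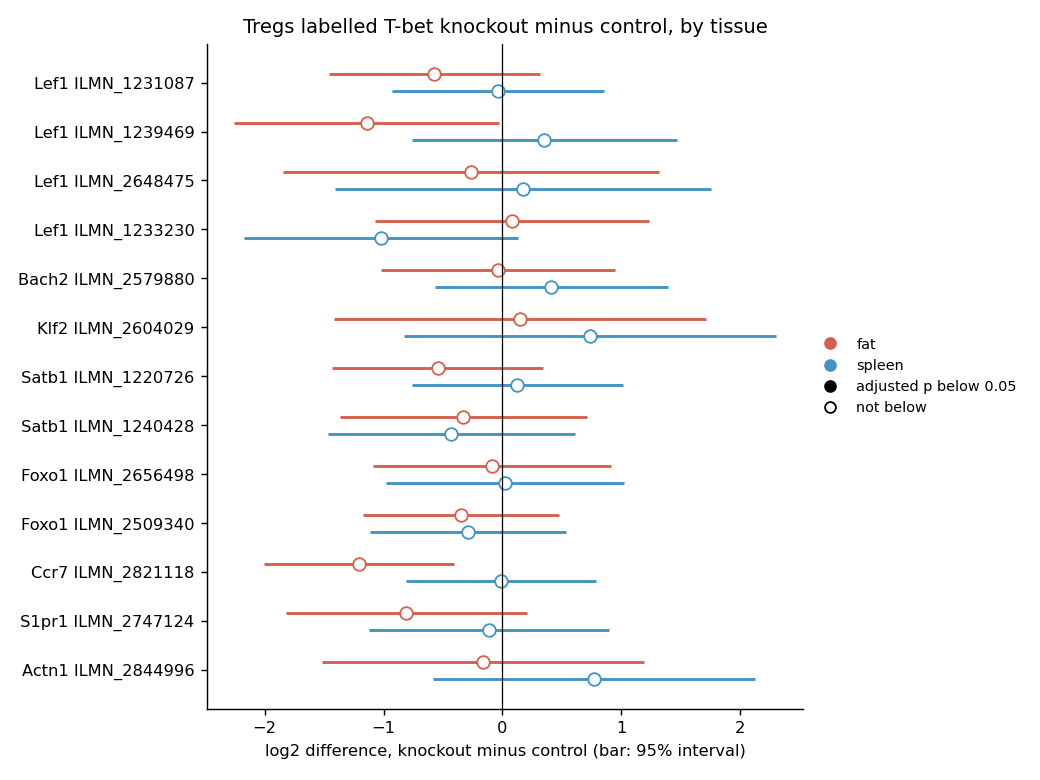
Log2 difference between Tregs labelled T-bet knockout and control for each of the 13 probes, in fat (above) and in spleen (below), with the 95% interval as a bar. No point passes the adjusted threshold, and the intervals of Ccr7 and of Lef1 ILMN_1239469 in fat lie below 0. Lef1 ILMN_1239469, Lef1 ILMN_1233230, Foxo1 ILMN_2509340 and Bach2 are drawn at their measured values, although groups of theirs in fat were not well above background.

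Genes that share the members' setting were read by the brightest kept probe of each gene, over both genotypes. Of 30 other genes of quiescence and recirculation, 28 were measured, of which 10 fell and 1 rose in fat, beside 7.92% of all 10025 genes called lower and 6.96% called higher. Their median difference was -0.71, beside -0.07 over all genes. This list and those below were chosen with earlier results of these data known, so their counts are descriptions. The lower count was 6 under median scaling, without replicate 1 or 2 of spleen control, and without replicate 2 of either knockout-labelled group.

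Izumo1r (folate receptor 4, a surface protein of resting Tregs) ranged from 4.67 to 5.59 in fat (median 4.99), against 7.79 to 8.96 in spleen (median 8.35). It fell by 3.24 (SE 0.25, limma adjusted p = 8.35e-06), with no overlap between tissues. Bcl2, which protects cells from apoptosis, ranged from 6.10 to 8.60 in fat (median 7.34), against 9.33 to 10.05 in spleen (median 9.80), and fell by 2.43 (limma adjusted p = 0.00128). Ms4a4b, a membrane protein of T cells, fell by 2.18 (limma adjusted p = 0.00171). Dapl1 was not well above background on any fat array, so it passed the filter through spleen arrays alone. It was at least 3.31-fold lower in fat (limma adjusted p = 0.000928). These 4 calls held in all 16 alternatives tried for the list.

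The 1 gene of the list that rose was Il7r, the receptor for the survival cytokine IL-7, singled out after its values were seen. It ranged from 10.08 to 10.81 in fat (median 10.68), against 8.66 to 9.60 in spleen (median 9.23), and rose by 1.36 (SE 0.24, limma adjusted p = 0.00282), so its direction was opposite to that of Lef1, Ccr7 and Actn1. This call also held in all 16 alternatives.

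Of 20 structural relatives of the members 15 were measured, of which 5 rose and 0 fell in fat, with a median of 0.23. Over all genes 6.96% were called higher and 7.92% lower. Ccr6, a chemokine receptor with a difference of -1.63 (limma adjusted p = 0.107), was called lower with the slide as a block (adjusted p = 0.0123) and without replicate 2 of fat labelled knockout (adjusted p = 0.0216). Klf4, a relative of Klf2, ranged from 9.91 to 10.69 in fat (median 10.20), against 4.38 to 9.17 in spleen (median 4.54), and rose by 4.22 (SE 0.92, limma adjusted p = 0.0103). Cxcr4, a chemokine receptor of the family of Ccr7, ranged from 9.87 to 10.80 in fat, against 8.47 to 9.74 in spleen, and rose by 1.34 (limma adjusted p = 0.0125). Klf10 rose by 1.25 (limma adjusted p = 0.0302), and Actn2, the relative of Actn1, by 1.39 (limma adjusted p = 0.0458). The calls of Klf10 and Actn2 held in only 9 and 5 of 16 alternatives. Only 2 or 3 genes rose when any 1 array was left out other than replicate 2 of fat control or replicate 3 of either spleen group, whereas the calls of Klf4 and Cxcr4 held in all 16 alternatives.

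Among partners and regulators 19 of 24 were measured, with 1 gene higher, 1 lower and a median of 0.39. Both counts are near the shares over all genes, of which 6.96% were called higher and 7.92% lower. Ctnnb1, which encodes the beta-catenin bound by Lef1, rose by 0.69 (limma adjusted p = 0.0386), and Pik3ip1, an inhibitor of PI3-kinase upstream of Akt and Foxo1, fell by 1.27 (limma adjusted p = 0.0291). Their calls held in 6 and 8 of 16 alternatives. The count of genes called higher was 2 under cyclic loess and 3 under median scaling or with the slide as a block, where Mafk (1.68, limma adjusted p = 0.0515), a small Maf protein that pairs with Bach factors, was among them (adjusted p = 0.0462, 0.0311 and 0.0431). Over all alternatives 0 or 1 gene was called lower and 0 to 3 higher. Ccr6 and Mafk are named after their values were seen.

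Effector and tissue Treg genes stood on the other side of these changes. Of 20 such genes 18 were measured, of which 16 rose and 1 fell, with a median of 1.77, beside 6.96% and 7.92% of all genes. Il10, a suppressive cytokine, rose by 4.16 (limma adjusted p = 0.000913), Rora by 3.73 (limma adjusted p = 1.66e-05), Pparg, the regulator of fat Tregs, by 3.45 (limma adjusted p = 5.68e-05) and Gata3 by 3.28 (limma adjusted p = 4.60e-05). Itgae, the integrin of epithelial retention, was the 1 that fell, with a difference of -2.08 (limma adjusted p = 0.0242, called in 8 of 16 alternatives), and it is named after its values were seen. This list is known for fat Tregs from earlier work and is no independent evidence of its direction. The part of other cell types, whose markers are given below, in these values was not tested.

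**Figure D4:**
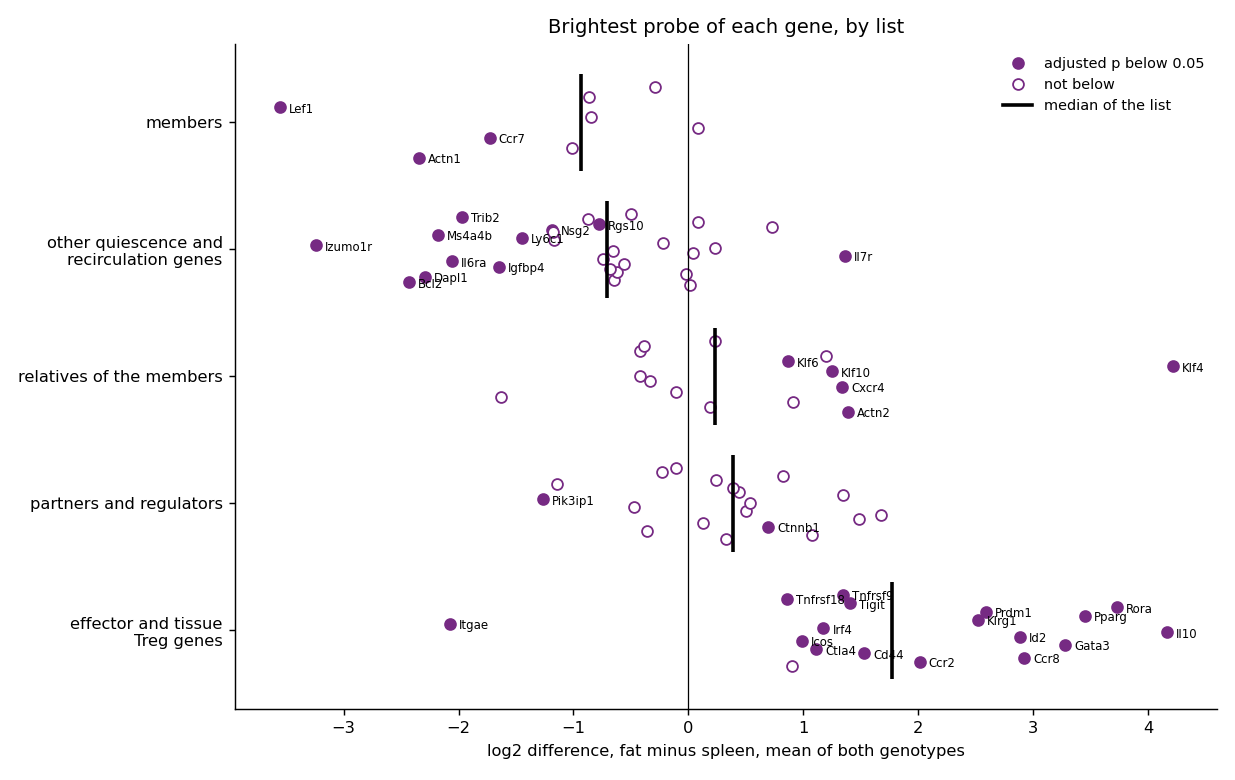
Log2 difference between fat and spleen Tregs, averaged over genotypes, for the brightest probe of each gene, 1 row per gene list, with filled points at a limma adjusted p below 0.05 and the list median as a bar. The medians lie at -0.94 for the 8 measured members (-0.85 with Bach2 at its bound), -0.71, 0.23 and 0.39 for the next lists, and 1.77 for the effector and tissue Treg genes.

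Markers of some other cell types moved with the tissue, read here over both genotypes unless stated. Over all genes 6.96% were called higher and 7.92% lower in fat. Of 10 macrophage and monocyte markers 9 were measured and 7 rose in fat, and their summed normalized intensity was 3135 to 13665 in fat, against 251 to 1216 in spleen. Of 7 T cell markers 5 were measured and 3 fell in fat (Cd3d by 0.85, Cd3g by 0.73 and Cd3e by 0.72, limma adjusted p of 0.0196, 0.0409 and 0.0484), with sums of 5044 to 6410 in fat, against 8119 to 9138 in spleen. All 5 Treg markers were measured and 3 rose in fat, with sums of 3260 to 5356 in fat, against 1838 to 3276 in spleen. Among those that rose, Ctla4 and Tnfrsf18 are also counted in the effector list, and their calls held in 9 and 5 of 16 alternatives. The part of any marker list in the results for members, for Klf4 and for the other gene lists, the effector and tissue Treg genes included, was not tested. Of 6 adipocyte markers only Fabp4 was measured, and it rose by 4.72 (limma adjusted p = 0.00118), with values of 129 to 2648 in fat, against 20.7 to 28.9 in spleen, while Plin1 was detected on 0 arrays. Of 5 erythroid and platelet markers 2 were measured, with sums of 367 to 2537 in fat, against 138 to 893 in spleen, and Pf4 rose by 4.26 (limma adjusted p = 0.000130). No measured marker of NK (2 of 3 measured), dendritic (3 of 5), endothelial (2 of 7) or stromal and mesothelial cells (1 of 8) was called. Among knockout-labelled samples alone, 1 NK marker was called higher in fat. The 1 stromal and mesothelial marker measured ranged from 4.49 to 7.92 in fat, against 4.38 to 4.52 in spleen. For B cells, which also use Ccr7 and Bach2, 3 of 7 markers were measured, Ms4a1 and Pax5 were detected on 0 arrays, and the sums were 68.8 to 545 in fat, against 125 to 264 in spleen. Both CD8 markers were measured, with sums of 163 to 410 in fat, against 193 to 385 in spleen.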

How the data were processed

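The authors deposited, per the file headers, a linear bead intensity for every probe and array, before any normalization, each paired with a detection p-value. GenomeStudio is named in the submitters' processing notes, with a version that is not given in the sources used here. Per the labels' protocols, RNA was prepared with Qiagen Allprep and amplified with NuGen Ovation Pico WTA System V2. A second deposited table, of normalized intensity, served as an alternative.

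Background was removed from the deposited intensities by nec (limma 3.58.1 under R 4.3.3, offset 16, negative controls inferred from the detection p-values), followed by quantile normalization and log2. Probes with a detection p below 0.05 on at least 3 of 12 arrays were kept. All 12 arrays entered 1 limma fit with 4 group means (eBayes, 8 residual and 3.97 prior degrees of freedom), which gave 6 comparisons and Benjamini-Hochberg adjustment over all 20367 kept probes, and a probe was called at an adjusted p below 0.05. SE is the moderated standard error. Where no array of a group was well above background, the fold is a bound ("at least") against the lowest detected signal per array, 4.83 to 5.53 on the log2 scale, taking the probe's own value where that is higher. The number of arrays limits precision.

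The platform annotation gave 1 gene symbol for 34885 probes, several for 18 and none for 10378. Gene lists used the probe with the highest mean of each gene, 10025 genes in all. Named were all member probes, up to 4 called genes with the largest change per list, the 3 genes most like each member, Foxp3, Tbx21 and markers of other cell types. Genes outside this rule are marked where they appear. The members and lists were chosen with earlier results of these data known. The slide equals the replicate number. Deviations from group means correlated at -0.05 to 0.35 (median 0.07, 18 pairs) on the same slide. Pairs of different slide and group had a median of -0.05 (36 pairs). Since each group is centred on its own mean, these medians are tied to each other, and the second is no independent baseline. The slide was kept as an alternative. Other alternatives changed the background correction, scaling, filter, array weights, groups in the fit and probes per gene, and left out each array.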

Additional observations from a re-analysis of the deposited data

How the results depend on the processing

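Of the 78 results for single member probes under up to 23 alternatives, none reversed where called, 6 calls were lost, all of Actn1 among knockout-labelled samples, and 16 were gained, each by Lef1, Ccr7 or Bach2. The count of member probes called between fat and spleen ranged from 3 to 5 among knockout-labelled samples, from 2 to 3 in controls and from 5 to 6 over both genotypes when each array was left out in turn. The counts for knockout against control and for the interaction stayed at 0 to 0. With 1 probe per gene, which leaves 8 member probes to test, the counts were 1 in controls and 3 over both genotypes. With the slide as a replicate block the counts were 5 among knockout-labelled samples, 2 in controls and 6 over both, with Lef1 ILMN_1233230 gained in the knockout-labelled samples (adjusted p = 0.0409) and Lef1 ILMN_2648475 over both (adjusted p = 0.0486), and no other member call changed. Over both genotypes, 51.6% of all called probes were lower in fat, against 40.9% under cyclic loess and 33.8% under median scaling, and the cause was not tested. Among knockout-labelled samples median scaling moved the median tissue difference of all kept probes to 0.07, against -0.07 in the quantile-normalized values. Signal over background limits the second Foxo1 probe, the Bach2 probe and Lef1 ILMN_1233230. Differences on single slides have no test.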

Other observations

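For each member the 3 genes with the most similar profile over the 12 arrays were read from 10017 genes, by Pearson correlation of the brightest probes. These correlations are descriptions, since the arrays share slides, scaling and the tissue difference, and the best of many genes is always high. Rps10 (0.97), a ribosomal protein, Hspe1 (0.97), a mitochondrial chaperonin, and Ifit1bl1 (0.96) were most like Lef1. Ssu72 (0.96), a phosphatase of RNA polymerase II, Pebp1 (0.94) and Ablim1 (0.93) were most like Ccr7. Rassf5 (0.96), which links Rap1 to integrin adhesion in lymphocytes, Ipo8 (0.94) and Cyld (0.93) were most like Actn1. No member was among the genes compared, so the likeness of members to each other is not covered. For S1pr1 the closest were Mrpl34 (0.91), Mcts1 (0.89) and Trmt6 (0.86), and for Klf2 they were Sharpin (0.89), Son (0.88) and Pfn2 (0.86). Trak2 (0.95), Tubgcp4 (0.88) and Tent4a (0.85) were closest to Satb1. Jchain (0.93), Pwp1 (0.93) and Mamstr (0.93) were closest to Foxo1, whose arrays did not separate by tissue. For Bach2, mostly near background, Ccdc126 (0.98), Wdr6 (0.93) and Klhl3 (0.91) came closest.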
